A study of Mus musculus with 12 samples.

Results

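The mouse genes whose symbol is Zfp followed only by digits were examined in CD4+ YFP(FOXP3)- T cells, the conventional CD4 T cells together with cells that have lost FOXP3. A gene was included when its mean over the 12 libraries reached 10 CPM, that is reads of the gene per 1e6 reads on genes. Of 344 such symbols among 26608 genes listed, 199 met this level. A further 121 were tested at a lower level, and 24 had too few reads to be tested, of which 11 had no read in any library. The members were thus chosen by their measured level, a mean over all groups, which could also be met through the groups in which a gene was high.

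The cells were sorted from mice aged 14 weeks, with spleen pooled with cervical and inguinal nodes, 1 library per mouse and 4 mice in each group. WT mice were Foxp3Cre WT, and both other groups were Foxp3-Cre Tet2/3 fl/fl, in which the DNA dioxygenases TET2 and TET3 are deleted in cells that have expressed *Foxp3*. DKO-moderate and DKO-severe mice therefore had the same genotype and were separated by the authors by the total cell number of the same organs, so that severity is an observed and not an assigned property. All 12 mice carried the Foxp3-YFP Cre knock-in. The sorted cells were a mixture in which only former FOXP3-expressing cells, and any cells with leaky Cre activity, would carry the deletion.

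Zinc finger proteins hold a zinc ion with pairs of cysteines and histidines. In the C2H2 type, the largest family of mammalian transcription factors, tandem fingers read DNA bases one after another. Many of them also carry a KRAB domain, which recruits the corepressor TRIM28 (KAP1) and through it the histone methyltransferase SETDB1, and such proteins are best known for silencing transposable elements and keeping genomic imprints. The Zfp names also cover unrelated proteins, such as tristetraprolin (*Zfp36*), whose CCCH fingers bind AU-rich elements of cytokine messenger RNAs and lead to their decay. The difference between both types is shown by the coding DNA (GENCODE, GRCm38) of 1 finger of each of 3 members that changed among the most, with the codons of the zinc-binding cysteines and histidines in capitals.
Zfp36, codons 101 to 120, CCCH: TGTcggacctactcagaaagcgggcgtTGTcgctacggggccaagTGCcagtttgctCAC
Zfp658, codons 303 to 323, C2H2: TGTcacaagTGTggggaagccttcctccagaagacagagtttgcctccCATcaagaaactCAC
Zfp870, codons 280 to 300, C2H2: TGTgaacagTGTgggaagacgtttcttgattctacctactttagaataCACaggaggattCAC
In *Zfp36* 3 cysteine codons precede 1 histidine codon, and the protein of 319 residues holds 2 such fingers. The other two fingers begin with 2 cysteine codons and end with 2 histidine codons, and the proteins hold 21 (*Zfp658*, 887 residues) and 10 (*Zfp870*, 561 residues) C2H2 fingers.

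By translation of the GENCODE transcripts, 99 members encoded a KRAB domain, 93 encoded C2H2 fingers without a KRAB match and 6 encoded neither. The remaining member, *Zfp862*, was matched to a transcribed pseudogene with no coding sequence. The mean level of the members ran from 10 to 309 CPM with a median of 28.3 CPM, and 18 members were above 100 CPM. Just inside the level that chose the members lay *Zfp771* (10.01 CPM) and *Zfp446* (10 CPM), and just outside it *Zfp40* (9.92 CPM) and *Zfp783* (9.72 CPM). In DKO-severe against WT they were, on the log2 scale, at 0.56, -0.14, -0.12 and -0.72. In 183 members every group mean was at least 10 CPM, whereas 16 members fell below it in at least 1 group and were included through the groups where they were higher.

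Between 29254260 and 42133536 reads were counted on genes in each library. T cell markers summed to 4430-5800 CPM in every library. All 8 proliferation genes rose in each of the 3 comparisons, with sums of 73.7-137 CPM in WT, 214-403 CPM in DKO-moderate and 551-1430 CPM in DKO-severe, and 7 of 8 naive T cell genes fell in DKO-severe against WT, with sums of 5020-5710, 2890-4330 and 1950-2690 CPM. All 10 neutrophil genes rose in DKO-severe against WT, with sums of 0-1.58 CPM in WT, where *Elane* and *Ly6g* were at 0, 0.151-8.63 CPM in DKO-moderate, and 2350, 896, 25.1 and 10.7 CPM in the DKO-severe libraries 1 to 4. None of the 8 B cell genes passed the edgeR test in either direction, their sums being 1.11-195 CPM in WT, 2.09-6.44 CPM in DKO-moderate and 19.2-338 CPM in DKO-severe. Of 7 plasma cell and 8 monocyte and macrophage genes 3 each rose in DKO-severe against WT. Y-linked genes summed to 0-0.605 CPM in WT 2, DKO-moderate 2, DKO-moderate 4 and DKO-severe 3 and to 390-526 CPM in the other libraries, so the sexes were mixed within groups. In sorted bulk samples a smaller share of cells of a type cannot be told apart from less RNA of a gene per cell.

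The Zfp genes moved mainly downwards in DKO-severe mice. Against WT, 99 of the 199 members fell and 17 rose at an adjusted p below 0.05 (edgeR quasi-likelihood test, Benjamini-Hochberg over 16035 genes), and 83 passed in neither direction. Over all tested genes 25.9% were called lower and 26.6% higher, and over the 8958 genes with a mean of at least 10 CPM, the nearer background, 34.3% were called lower and 22.2% higher, against 49.7% and 8.54% of the members. The median log2 fold change of the members was -0.31, beside -0.11 for the genes of at least 10 CPM and -0.01 for all tested genes. A negative value was found in 154 of 199 members (77.4%), beside 59.3% of the genes of at least 10 CPM and 50.3% of all tested genes. The falls were mostly small. Their median was -0.53, 44 of the 99 were smaller than 0.5, and 6 reached a log2 fold change of -1. The 17 rises had a median of 0.99, and 8 of them reached 1. Among the 183 members with every group mean at or above 10 CPM, 96 fell and 10 rose.

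**Figure D1:**
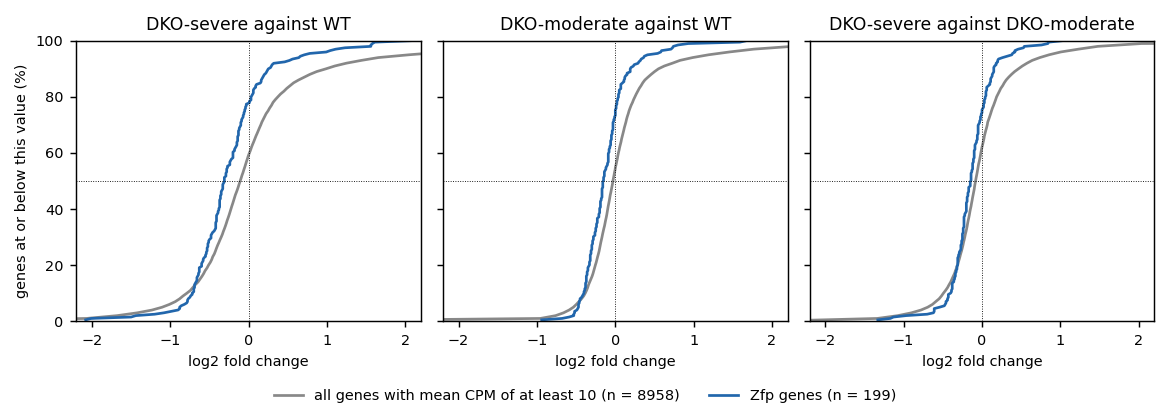
Cumulative share of genes (vertical axis, percent) at or below a given log2 fold change (horizontal axis) in each of the 3 comparisons, for the 199 Zfp genes (blue) and the 8958 genes with a mean of at least 10 CPM (grey). The Zfp curve lies to the left of the grey curve over most of its range, with medians of -0.31, -0.15 and -0.14 against -0.11, -0.03 and -0.08, while the grey curve extends further on both tails.

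The size of the shift depended on how libraries were scaled. Trimmed mean (TMM) scaling, used here, put the median of all tested genes at -0.01 in DKO-severe against WT. Scaling by library size alone put it at 0.18, with 56 members lower and 29 higher and a member median of -0.13, and DESeq2 size factors put it at 0.08, with 74 lower and 21 higher and a member median of -0.23. The genes of at least 10 CPM had medians of -0.11 with TMM, -0.02 with DESeq2 size factors and 0.08 with library size, nearer to the members than the median of all tested genes under each scaling. Of these 8958 genes 3077 were lower and 1987 higher with TMM. The counts were 2509 lower and 2399 higher with DESeq2 size factors, and 1911 lower and 2965 higher with library size. With library size the background was thus mostly higher, while the members were mostly lower.

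DKO-moderate mice showed a smaller shift. Against WT, 21 members fell and 11 rose, beside 4.74% lower and 12.3% higher over all tested genes and 6.72% lower and 12.2% higher over the genes of at least 10 CPM. The member median was -0.15, against 0 for all tested genes and -0.03 for the genes of at least 10 CPM. Against DKO-moderate, the DKO-severe libraries were lower for 28 members and higher for 6, beside 10.7% lower and 9.41% higher over all tested genes and 15.1% lower and 8.83% higher over the genes of at least 10 CPM. The share of members called lower there, 14.1%, was near that of the 15.1% background, and the median was -0.14 against -0.08. Both comparisons with WT use the same 4 WT libraries.

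The DKO-moderate libraries were uneven. Relative to the WT mean, the median log2 difference over the 199 members was between -0.02 and 0.02 in the 4 WT libraries. It was -0.05, -0.23, -0.02 and -0.34 in DKO-moderate 1 to 4, and -0.38, -0.26, -0.27 and -0.28 in DKO-severe 1 to 4. DKO-moderate 1 and 3 therefore lay near WT while 2 and 4 lay within or near the range of DKO-severe, so that these groups overlapped. This split depended on the scaling. With library size alone the medians were -0.044, -0.065, -0.001 and -0.217 in DKO-moderate 1 to 4 and -0.217, -0.043, -0.104 and -0.088 in DKO-severe 1 to 4. DKO-moderate 2 then lay near DKO-moderate 1, and only DKO-moderate 4 stood apart in its group. DKO-severe 2 lay at the level of DKO-moderate 1. DKO-moderate 2 and 4 also had the lowest naive T cell sums of their group (3020 and 2890 CPM, against 3940 and 4330 CPM) and hardly any Y-linked reads, and the part of either in the difference was not tested. The TMM-scaled CPM of all members summed to 9387-9789 in WT, 9424, 8636, 9511 and 7314 in DKO-moderate, and 7246-8042 in DKO-severe. Without this scaling the members held 0.886-0.925% of the reads on genes in WT. Their shares were 0.893, 0.909, 0.909 and 0.747% in DKO-moderate 1 to 4, and 0.763, 0.877, 0.845 and 0.828% in DKO-severe 1 to 4. By reads, DKO-moderate 2 thus lay inside the WT range.

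**Figure D2:**
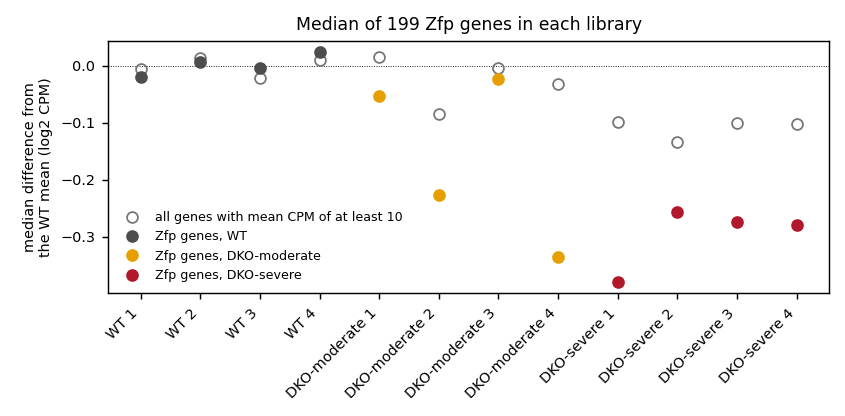
Median over the 199 Zfp genes of the difference from the WT mean (vertical axis, log2 CPM after TMM scaling) in each of the 12 libraries (filled points, coloured by group), with the median over all genes of at least 10 CPM in the same library (open points). The 4 DKO-severe libraries lie between -0.38 and -0.26, and DKO-moderate 2 and 4 lie at -0.23 and -0.34 apart from DKO-moderate 1 and 3.

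Counted gene by gene, 143, 122, 118 and 133 of the 199 members were below the lowest WT library in DKO-severe 1 to 4, or 59.3-71.9% of the members beside 46.5-49.4% of the genes with at least 10 CPM. Above the highest WT library were 26, 33, 34 and 30 members, or 13.1-17.1% beside 27.3-34.6%. In DKO-moderate 1 to 4 the members below all WT libraries were 64, 111, 53 and 135. These were 32.2, 55.8, 26.6 and 67.8% of the members, beside 25.4, 43.4, 26.6 and 41.3% of the genes with at least 10 CPM, so that DKO-moderate 3 was at the background. 

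**Figure D3:**
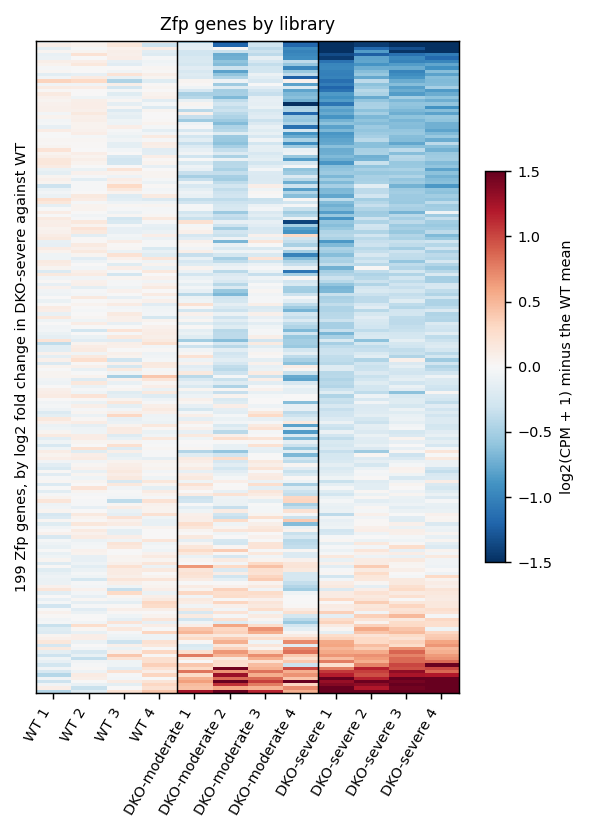
The 199 Zfp genes (lines, ordered by their change in DKO-severe against WT) in the 12 libraries (columns), coloured by the difference of log2(CPM + 1) from the WT mean on a scale clipped at 1.5. Blue covers most of the DKO-severe columns, the strongest red is in the lowest lines, and DKO-moderate 4 has scattered genes of a darker blue than the DKO-severe columns beside them.

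The comparison was repeated with the mean neutrophil and B cell marker levels of each library as terms of the fit. The counts then fell to 8 higher and 6 lower members in DKO-severe against WT, with a median of -0.13. Of all 16035 tested genes 14% were then called, 1669 higher and 580 lower, so rises outnumbered falls in the background too. The members still called were *Zfp639*, *Zfp593*, *Zfp386*, *Zfp622*, *Zfp869* and *Zfp740* on the lower side and *Zfp282*, *Zfp207*, *Zfp324*, *Zfp52*, *Zfp367*, *Zfp41*, *Zfp467* and *Zfp862* on the higher side. Neutrophil sums separated DKO-severe from WT without overlap, whereas B cell sums overlapped, with WT 3 at 195 CPM inside the DKO-severe range. Because the neutrophil level followed the groups, the loss of calls cannot be told apart from the loss of the group difference itself. Without DKO-severe 1 and 2, the libraries with the highest neutrophil sums, 62 members fell and 17 rose, with a median of -0.23. Of all 15630 genes tested in that fit 2931 fell and 3681 rose.

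The members with the largest falls in DKO-severe were *Zfp652*, *Zfp658*, *Zfp36*, *Zfp238*, *Zfp281*, *Zfp592*, *Zfp639* and *Zfp386*. They were taken among called members whose DKO-severe and WT libraries did not overlap, so the separation of these groups follows from the choice. *Zfp652* and *Zfp238* encode C2H2 repressors, *Zfp238* being also known as *Zbtb18* or RP58, and *Zfp281* encodes a factor that binds GC-rich DNA and is best studied in embryonic stem cells. *Zfp658* and *Zfp386* encode KRAB proteins. Promoters are shown for the 3 largest falls and 3 largest rises with a RefSeq start within 2000 bases of the GENCODE gene start. By this rule *Zfp652*, *Zfp870* and *Zfp41* are not shown. Each promoter is given as the 250 bases before the RefSeq start (GRCm38.p6), with each CpG in capitals. TET enzymes act on methylated CpG, and CpG density differs widely among these genes.
Zfp658, chr7:43562120-43562369, plus strand: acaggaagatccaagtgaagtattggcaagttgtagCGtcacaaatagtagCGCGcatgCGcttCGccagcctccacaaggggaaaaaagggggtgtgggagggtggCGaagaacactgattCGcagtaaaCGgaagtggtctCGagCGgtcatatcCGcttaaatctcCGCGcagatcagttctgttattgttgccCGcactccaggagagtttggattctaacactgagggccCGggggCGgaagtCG
Zfp36, chr7:28379229-28379478, minus strand: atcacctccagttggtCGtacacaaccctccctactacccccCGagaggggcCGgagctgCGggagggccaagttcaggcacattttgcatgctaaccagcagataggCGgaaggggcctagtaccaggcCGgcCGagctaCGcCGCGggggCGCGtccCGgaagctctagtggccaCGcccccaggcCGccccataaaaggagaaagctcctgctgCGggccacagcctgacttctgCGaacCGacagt
Zfp238, chr1:177442101-177442350, plus strand: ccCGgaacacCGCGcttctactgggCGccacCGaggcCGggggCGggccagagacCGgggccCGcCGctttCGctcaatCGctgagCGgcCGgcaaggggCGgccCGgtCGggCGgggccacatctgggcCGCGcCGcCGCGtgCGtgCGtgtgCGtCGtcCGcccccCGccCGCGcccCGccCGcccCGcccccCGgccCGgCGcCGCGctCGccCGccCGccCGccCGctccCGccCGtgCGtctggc
Zfp367, chr13:64153200-64153449, minus strand: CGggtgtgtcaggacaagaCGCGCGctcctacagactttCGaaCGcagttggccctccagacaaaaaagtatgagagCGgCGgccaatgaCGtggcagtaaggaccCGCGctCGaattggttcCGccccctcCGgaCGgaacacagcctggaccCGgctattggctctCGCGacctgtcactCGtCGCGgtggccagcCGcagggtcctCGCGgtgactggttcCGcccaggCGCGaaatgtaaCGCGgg
Zfp467, chr6:48445091-48445340, minus strand: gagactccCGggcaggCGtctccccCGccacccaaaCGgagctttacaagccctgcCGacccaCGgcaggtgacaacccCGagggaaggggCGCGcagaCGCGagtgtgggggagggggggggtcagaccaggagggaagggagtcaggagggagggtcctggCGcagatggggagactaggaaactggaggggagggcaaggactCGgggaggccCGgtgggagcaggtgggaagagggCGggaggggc
Zfp821, chr8:109705296-109705545, plus strand: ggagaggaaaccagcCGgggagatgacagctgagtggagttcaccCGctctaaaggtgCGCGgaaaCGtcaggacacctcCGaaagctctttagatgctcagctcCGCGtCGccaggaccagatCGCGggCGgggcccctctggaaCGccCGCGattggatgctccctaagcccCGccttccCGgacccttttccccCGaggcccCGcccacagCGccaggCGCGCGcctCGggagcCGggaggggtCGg
The first 3 belong to members that fell and the last 3 to members that rose. They held 17, 18, 47, 29, 15 and 26 CpG, all above the median of 12 over the members. This does not hold for all members with large changes, since the window of *Zfp652*, which is not shown, had under 10 CpG. No methylation was measured in these libraries.

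*Zfp652* (chr11:95712673-95835115, plus strand) had 51.9, 56.4, 59 and 58.6 CPM in WT. It had 39.1, 19.8, 42.9 and 15.6 CPM in DKO-moderate and 5.84, 20.6, 16 and 11 CPM in DKO-severe. DKO-severe was below WT without overlap, and DKO-moderate spanned the gap, with libraries 2 and 4 inside the DKO-severe range. The log2 fold change was -2.08 ± 0.38 (SE, adjusted p = 0.000722) in DKO-severe against WT, -0.94 ± 0.37 (adjusted p = 0.0964) in DKO-moderate against WT and -1.13 ± 0.37 (adjusted p = 0.0491) between the DKO groups. The last call was lost in 9 of 12 fits with 1 library left out, with the highest adjusted p, 0.141, without DKO-moderate 3.

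*Zfp658* (chr7:43562256-43575461, plus strand) had 19.8, 19.2, 20.9 and 14.8 CPM in WT. DKO-moderate had 16.5, 7.57, 14.9 and 7.6 CPM, and DKO-severe 2.82, 6.27, 5.69 and 3.69 CPM. All 4 DKO-severe libraries lay below every other library, and DKO-moderate 2 and 4 again lay below 1 and 3. The log2 fold change was -2.01 ± 0.32 (adjusted p = 0.000262) in DKO-severe against WT, -0.68 ± 0.30 (adjusted p = 0.145) in DKO-moderate against WT, and -1.33 ± 0.31 (adjusted p = 0.0134) between the DKO groups.

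*Zfp36* (chr7:28376784-28380253, minus strand), the decay factor for AU-rich messages, had the highest level of all members per kilobase of exon. Its libraries were at 394, 429, 456 and 473 CPM in WT, 395, 443, 333 and 227 CPM in DKO-moderate and 116, 194, 174 and 137 CPM in DKO-severe. WT and DKO-moderate overlapped, and every DKO-severe library was below both. The log2 fold change was -1.50 ± 0.20 (adjusted p = 9.11e-05) against WT and -1.17 ± 0.20 (adjusted p = 0.00462) against DKO-moderate, while DKO-moderate against WT was at -0.32 ± 0.20 (adjusted p = 0.277).

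*Zfp238* (chr1:177442351-177450764, plus strand) had 61.5, 61.4, 63.4 and 53.3 CPM in WT, 48.8, 47.3, 47.7 and 29.3 CPM in DKO-moderate, and 15.3, 32.9, 21 and 19.4 CPM in DKO-severe. Both DKO groups were below WT without overlap, although DKO-moderate 4 lay inside the DKO-severe range. The log2 fold changes were -1.44 ± 0.22 (adjusted p = 0.000211) in DKO-severe and -0.47 ± 0.21 (adjusted p = 0.151) in DKO-moderate against WT.

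*Zfp281* (chr1:136624901-136630053, plus strand) had 145, 182, 165 and 137 CPM in WT, 127, 93, 119 and 79.6 CPM in DKO-moderate, and 61.1, 66.3, 71.2 and 75.3 CPM in DKO-severe. The groups formed 3 steps without overlap. Among the members called in DKO-moderate against WT it had the largest fall, at -0.59 ± 0.14 (adjusted p = 0.0156), with -1.20 ± 0.15 (adjusted p = 4.54e-05) in DKO-severe and -0.61 ± 0.14 (adjusted p = 0.0139) between the DKO groups. The DKO-moderate call was lost without WT 2 (adjusted p = 0.0537) and without DKO-moderate 2 (adjusted p = 0.0506), over a range of 0.00814 to 0.0537 with single libraries left out.

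*Zfp592* (chr7:80993681-81045164, plus strand) had 181, 194, 207 and 190 CPM in WT, 163, 117, 176 and 101 CPM in DKO-moderate and 70.8, 111, 98.4 and 85.2 CPM in DKO-severe, at -1.08 ± 0.18 (adjusted p = 0.00035) against WT. DKO-moderate 4 lay inside the DKO-severe range. *Zfp639* (chr3:32510259-32520833, plus strand) had 53.4, 53.6, 45.8 and 47.7 CPM in WT, 42.5, 32.7, 41.8 and 38 CPM in DKO-moderate and 22.7, 28.8, 24.5 and 24.8 CPM in DKO-severe. *Zfp386* (chr12:116047724-116063360) had 62, 66.8, 52.7 and 57.9 CPM in WT, 49.5, 37.7, 46.2 and 39.6 CPM in DKO-moderate and 29.8, 31.9, 32.8 and 34.2 CPM in DKO-severe. Both formed 3 steps without overlap and were called lower in all 3 comparisons, with log2 fold changes of -0.99 ± 0.11 and -0.90 ± 0.10 in DKO-severe against WT, -0.37 ± 0.11 and -0.47 ± 0.10 in DKO-moderate against WT, and -0.62 ± 0.11 and -0.43 ± 0.10 between the DKO groups. The DKO-moderate call of *Zfp639* (adjusted p = 0.031) was lost without WT 1 (0.0895), WT 2 (0.091) or DKO-moderate 2 (0.0851), over a range of 0.0171 to 0.091 with single libraries left out, and the call of *Zfp386* between the DKO groups (adjusted p = 0.0153) was lost without DKO-moderate 1 (0.0503), over a range of 0.00902 to 0.0503.

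The largest rises were those of *Zfp870*, *Zfp367*, *Zfp41*, *Zfp467*, *Zfp821*, *Zfp839*, *Zfp52* and *Zfp523*. All were between 3.85 and 20 CPM on average in WT, and were likewise taken among called members without overlap between DKO-severe and WT. For 4 of them, *Zfp870*, *Zfp41*, *Zfp821* and *Zfp839*, the WT mean was below 10 CPM and the level was met through the DKO groups. *Zfp467* is known from the fate of marrow stromal cells. *Zfp523*, the counterpart of human ZNF76, is a close relative of *Zfp143*, which activates small nuclear RNA promoters.

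*Zfp367* (chr13:64133018-64153202, minus strand) had 12.7, 9.2, 11.9 and 14 CPM in WT, 16.4, 18.2, 17.4 and 19.9 CPM in DKO-moderate and 37.9, 28.6, 34.1 and 44.7 CPM in DKO-severe. The 3 groups did not overlap and rose in steps. The log2 fold changes were 1.61 ± 0.16 (adjusted p = 1.29e-05) in DKO-severe against WT, 0.59 ± 0.15 (adjusted p = 0.0205) in DKO-moderate against WT and 1.02 ± 0.15 (adjusted p = 0.0035) between the DKO groups. The DKO-moderate call was lost without WT 2 (adjusted p = 0.0595) and without DKO-moderate 4 (adjusted p = 0.0526), within a range of 0.0164 to 0.0595 for single libraries left out.

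*Zfp467* (chr6:48427697-48445825, minus strand) was nearly level among WT libraries, at 15.1, 16.7, 15.2 and 15.6 CPM. It was at 23.1, 29, 29.1 and 21.4 CPM in DKO-moderate and 47.2, 35.9, 53.6 and 48.1 CPM in DKO-severe, again in 3 steps without overlap. It had the smallest adjusted p of all members, 8.23e-06, at 1.56 ± 0.14 in DKO-severe, with 0.71 ± 0.14 (adjusted p = 0.00447) in DKO-moderate and 0.85 ± 0.13 (adjusted p = 0.00368) between the DKO groups. *Zfp41* (chr15:75616679-75629827, plus strand) followed the same order, with 9.17, 8.71, 8.51 and 12 CPM in WT, 13.6, 21.4, 17.1 and 12.1 CPM in DKO-moderate and 26.3, 25.6, 28.8 and 34.2 CPM in DKO-severe. The corresponding log2 fold changes were 1.58 ± 0.19 (adjusted p = 3.97e-05), 0.74 ± 0.18 (adjusted p = 0.0173) and 0.84 ± 0.18 (adjusted p = 0.0102) in the same 3 comparisons, and the DKO-moderate call was lost without WT 1 (adjusted p = 0.0532), WT 2 (0.0561) or DKO-moderate 2 (0.0507), over a range of 0.0113 to 0.0561.

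In *Zfp821* and *Zfp523* the highest DKO-moderate values were those of libraries 2 and 4, which hold hardly any Y-linked reads. *Zfp821* (chr8:109705546-109724932, plus strand) had 5.43, 6.97, 7.68 and 8.12 CPM in WT, 11.2, 26.5, 15.4 and 31.6 CPM in DKO-moderate, and 18.8, 21.2, 20.5 and 22.3 CPM in DKO-severe. DKO-moderate libraries lay both below and above the DKO-severe range, and the log2 fold changes were 1.59 ± 0.28 (adjusted p = 0.00259) and 1.56 ± 0.28 (adjusted p = 0.000586) against WT and -0.03 ± 0.27 (adjusted p = 0.946) between the DKO groups. *Zfp870* (chr17:32879219-32891642, minus strand), a KRAB gene, had 2.47, 3.13, 4.51 and 5.28 CPM in WT, 10.2, 23.7, 9.44 and 5.83 CPM in DKO-moderate, and 23.4, 14.2, 14.2 and 12.5 CPM in DKO-severe. Single libraries, DKO-moderate 2 and DKO-severe 1, were the highest of their groups. The log2 fold changes were 2.06 ± 0.41 (adjusted p = 0.00124) in DKO-severe and 1.67 ± 0.40 (adjusted p = 0.0144) in DKO-moderate, the latter lost without WT 1 (adjusted p = 0.0504, over a range of 0.00868 to 0.0504). *Zfp523* (chr17:28177129-28205886) had 10.2, 10.8, 9.31 and 12.5 CPM in WT, 13.2, 30.8, 15.7 and 22.2 CPM in DKO-moderate and 18.8, 25.1, 21.6 and 22.4 CPM in DKO-severe, with log2 fold changes of 0.93 ± 0.23 (adjusted p = 0.0151) and 1.04 ± 0.23 (adjusted p = 0.00242) against WT. Among the libraries with Y-linked reads the DKO-moderate calls of all 3 were lost, at 0.90 (adjusted p = 0.0822) for *Zfp821*, 1.26 (0.127) for *Zfp870* and 0.43 (0.302) for *Zfp523*. In that fit only 2.48% of all tested genes were called, against 17.1% in the main fit. A fit of all 12 libraries with the mean Y-linked level as a term kept the DKO-moderate calls of all 3. It called 23 members in DKO-moderate against WT, 22 of them among the 32 of the main fit. Over all tested genes 13.9% were called with this term. The part of sex in these changes was not tested beyond these fits.

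*Zfp52*, a KRAB gene of chromosome 17, rose in every DKO library, from 16.6, 18.7, 23.3 and 21.3 CPM in WT to 35.2, 32.3, 35.7 and 29.3 CPM in DKO-moderate and 42.5, 41.7, 51.3 and 36.9 CPM in DKO-severe. Against WT this was a log2 fold change of 0.73 ± 0.13 (adjusted p = 0.00279) in DKO-moderate and 1.11 ± 0.13 (adjusted p = 3.56e-05) in DKO-severe, and no library left out removed either call. *Zfp839* (chr12:110850253-110869996) had 4.77, 7.45, 6.67 and 8.66 CPM in WT, 8.43, 18, 10.3 and 11.4 CPM in DKO-moderate and 16.5, 14.1, 17.1 and 16.8 CPM in DKO-severe. DKO-moderate overlapped both other groups. In DKO-severe the change of 1.23 ± 0.24 (adjusted p = 0.00105) held with each library left out. Its DKO-moderate value of 0.80 ± 0.23 (adjusted p = 0.0352) lost its call in 6 of 12 such fits, up to an adjusted p of 0.104 without DKO-moderate 2, which at 18 CPM was the highest of its group.

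**Figure D4:**
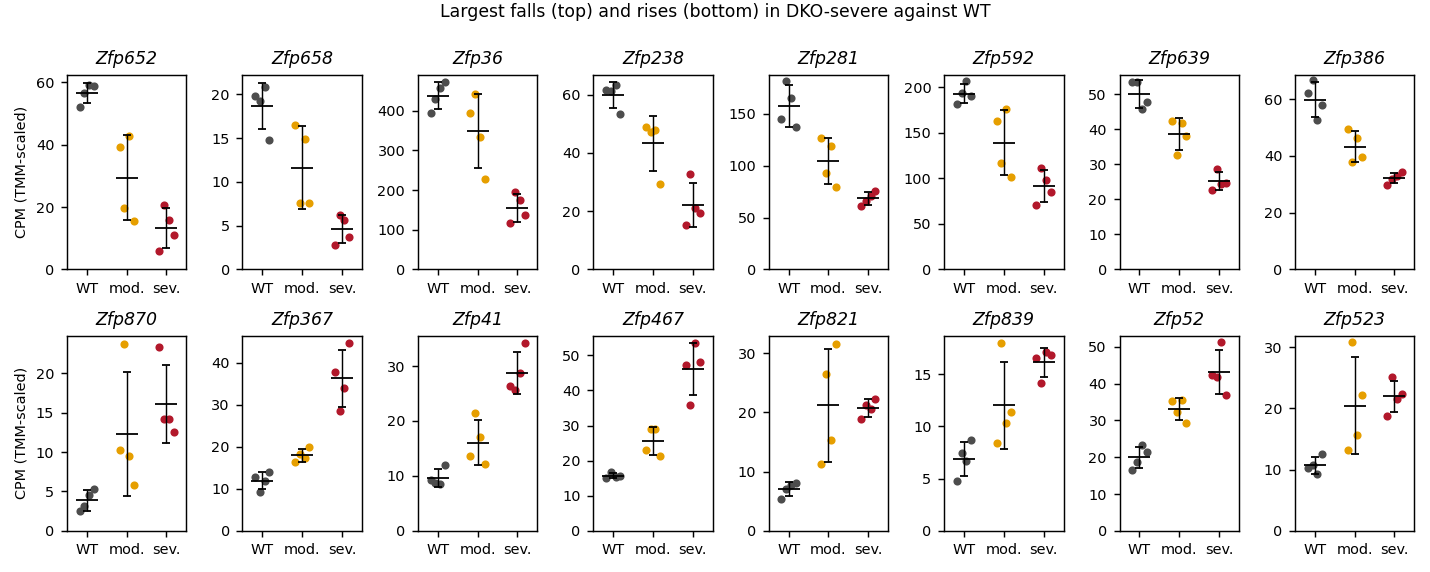
CPM after TMM scaling (vertical axes, each from 0) of the 8 members with the largest falls (top) and the 8 with the largest rises (bottom) in DKO-severe against WT. Points are libraries, 4 per group (WT grey, DKO-moderate orange, DKO-severe red), and bars are the mean and SD. DKO-severe points do not overlap WT in any panel, while DKO-moderate points spread widely, as for *Zfp821* with 11.2 to 31.6 CPM.

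Among called members, the next largest falls in DKO-moderate against WT were these: *Zfp775* was at -0.53 ± 0.15 (adjusted p = 0.0289), *Zfp507* at -0.53 ± 0.14 (adjusted p = 0.0218) and *Zfp408* at -0.52 ± 0.12 (adjusted p = 0.0095). *Zfp775* had 19.6, 14.8, 14.8 and 18.6 CPM in WT, 11.4, 10.4, 13.6 and 11.5 CPM in DKO-moderate and 14.2, 10.6, 15.1 and 13.3 CPM in DKO-severe. It was lower in DKO-moderate without overlap and did not pass the test in DKO-severe (-0.35 ± 0.15, adjusted p = 0.0636), where its libraries overlapped WT. The calls of *Zfp775* and *Zfp507* in DKO-moderate were each lost in 4 of 12 fits with a library left out, up to 0.0926 without WT 1 for *Zfp775* and 0.0647 without DKO-moderate 2 for *Zfp507*, and that of *Zfp408* in none.

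Between the DKO groups, *Zfp692* fell by 0.70 on the log2 scale (SE 0.20, adjusted p = 0.0296), and its DKO-severe libraries of 10.1, 17.5, 13.5 and 14.3 CPM were below the DKO-moderate libraries of 24, 22, 19.6 and 24.4 CPM. Its WT libraries, at 29.5, 28.9, 16.8 and 20.3 CPM, overlapped both groups. The call was lost in 5 of 12 fits with a library left out, up to 0.0815 without DKO-severe 3. *Zfp282* rose between the DKO groups by 0.54 ± 0.12 (adjusted p = 0.0112) and in DKO-severe against WT by 0.78 ± 0.12 (adjusted p = 0.000245), from 17.8, 18.8, 18.7 and 23.3 CPM in WT and 19.7, 23.7, 23 and 26.3 CPM in DKO-moderate to 33.9, 28.9, 35.9 and 35.9 CPM in DKO-severe.

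Levels between genes were compared per kilobase of exon. The highest means over the 12 libraries were those of *Zfp36* (90.6 CPM per kb), *Zfp869* (61.3), *Zfp740* (37.2), *Zfp207* (34.8), *Zfp445* (25.8) and *Zfp187* (25.6). The order changed between groups. In WT *Zfp36* (126 CPM per kb) was ahead of *Zfp869* (77) and *Zfp740* (42.8), whereas in DKO-severe *Zfp869* (47.4), *Zfp36* (44.7) and *Zfp207* (40.5) were close together. *Zfp869*, a KRAB gene, had 129, 129, 106 and 125 CPM in WT, 91.9, 97.1, 101 and 88.7 CPM in DKO-moderate and 68.7, 78.9, 76.2 and 77.9 CPM in DKO-severe, in 3 steps without overlap. Its log2 fold changes against WT were -0.70 ± 0.08 (adjusted p = 3.66e-05) in DKO-severe and -0.37 ± 0.08 (adjusted p = 0.00919) in DKO-moderate. *Zfp740* fell in DKO-severe from 240, 220, 207 and 204 CPM to 156, 164, 156 and 147 CPM, at -0.48 ± 0.08 (adjusted p = 0.000289), and *Zfp187* from 137 to 86.4 CPM, at -0.66 ± 0.15 (adjusted p = 0.0036).

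A list of 28 Zfp genes with a known function was also described. It held 25 members. *Zfp57*, the imprinting factor, was at a mean of 0.0441 CPM, and *Zfp638* and *Zfp683* were not listed under these names. Of the 25 members, 2 rose and 15 fell in DKO-severe against WT. Beside this, 22.2% rose and 34.3% fell of all genes of at least 10 CPM, and 8.54% and 49.7% of all members. The list was chosen by hand with earlier results of these data known, and its difference from the background was not tested.

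Only *Zfp367* and *Zfp207* rose among them. *Zfp207* (BuGZ), which binds BUB3 and takes part in spindle assembly, had 135, 155, 223 and 169 CPM in WT, 289, 239, 272 and 220 CPM in DKO-moderate, and 266, 271, 281 and 262 CPM in DKO-severe. WT 3 touched the DKO-moderate range, and DKO-severe was above WT without overlap. The rise was 0.58 ± 0.14 (adjusted p = 0.0137) in DKO-moderate and 0.66 ± 0.14 (adjusted p = 0.00176) in DKO-severe.

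*Zfp622*, which acts in the maturation of the large ribosomal subunit, went from 134, 130, 123 and 112 CPM in WT to 105, 93.1, 110 and 103 CPM in DKO-moderate and 77.8, 82.2, 82.9 and 71.3 CPM in DKO-severe, in 3 steps without overlap and at -0.67 ± 0.08 (adjusted p = 4.95e-05) in DKO-severe. *Zfp593*, which acts in the same pathway, was at -0.54 ± 0.13 (adjusted p = 0.00481), and *Zfp598*, the ubiquitin ligase that marks collided ribosomes, at -0.41 ± 0.07 (adjusted p = 0.00057). All 3 had DKO-severe libraries below every WT library.

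*Zfp143* had 61.3, 60.7, 53.9 and 63.5 CPM in WT and 38.4, 38.4, 38.4 and 38.2 CPM in DKO-severe (-0.64 ± 0.10, adjusted p = 0.000211). *Zfp335*, needed for T cell maturation, was at -0.54 ± 0.15 (adjusted p = 0.0083) and *Zfp292* at -0.68 ± 0.18 (adjusted p = 0.00822). *Zfp326*, tied to splicing, was at -0.44 ± 0.10 (adjusted p = 0.00254), and *Zfp451*, a SUMO ligase, at -0.41 ± 0.11 (adjusted p = 0.00794). The calls of *Zfp131* (-0.37 ± 0.12, adjusted p = 0.021), *Zfp318* (-0.42 ± 0.16, adjusted p = 0.0472), *Zfp644* (-0.36 ± 0.14, adjusted p = 0.0444) and *Zfp830* (-0.31 ± 0.11, adjusted p = 0.0284) were lost in 4, 9, 8 and 5 of 12 fits with a library left out. Their highest adjusted p was 0.0786 without DKO-severe 4 for *Zfp131*, 0.122 without DKO-severe 1 for *Zfp318*, 0.117 without WT 3 for *Zfp644* and 0.098 without DKO-severe 4 for *Zfp830*.

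The other 8 members of the list passed in neither direction. *Zfp445*, which keeps imprints together with *Zfp57*, was at 197 CPM in WT and 192 CPM in DKO-severe (-0.04 ± 0.10, adjusted p = 0.733). *Zfp809*, which silences murine leukaemia proviruses, was at 27.2 and 26.6 CPM (-0.03 ± 0.14, adjusted p = 0.87). *Zfp91*, a ubiquitin ligase, was at -0.04 ± 0.10, *Zfp217* at -0.10 ± 0.12, *Zfp706* at -0.13 ± 0.08 and *Zfp148* at -0.31 ± 0.14, and *Zfp106*, an RNA-binding protein, and *Zfp609* were at 0.09 ± 0.09 and 0.25 ± 0.17.

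Of 99 KRAB members 46 fell and 5 rose in DKO-severe against WT, with a median of -0.32, and of 93 C2H2 members without a KRAB match 51 fell and 9 rose, with a median of -0.31. In DKO-moderate the counts were 10 lower and 2 higher against 11 lower and 8 higher, and between the DKO groups 10 lower and 2 higher against 16 lower and 3 higher. The difference between both classes was not tested. By number of C2H2 fingers, 22 of 45 members with 1 to 5 fingers fell, 31 of 58 with 6 to 10 and 44 of 89 with over 10. By level, 29 of the 67 lowest members fell (43.3%) and 10 rose (14.9%), and 38 of the 66 highest fell (57.6%) and 2 rose (3.03%). Over all genes of at least 10 CPM, 34.3% fell and 22.2% rose, beside 46.5% and 5.05% of KRAB members and 54.8% and 9.68% of the others with C2H2 fingers. Members near the limit of 10 CPM could be included through groups where they were higher. With every group mean at 10 CPM or more, 10 of 183 members rose, against 17 of 199.

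Of the 26 genes of a KRAB corepressor list 9 fell and 5 rose in DKO-severe against WT. These shares, 34.6% lower and 19.2% higher, were near the 34.3% and 22.2% of all genes of at least 10 CPM, and the median of -0.13 was near -0.11. In DKO-moderate against WT 2 fell and 2 rose, 7.69% each, beside 6.72% and 12.2%. *Trim28*, the scaffold that KRAB domains bind, had means of 308 ± 22.3 (SD, n = 4), 297 ± 12.9 and 293 ± 31.8 CPM in WT, DKO-moderate and DKO-severe (-0.07 ± 0.09, adjusted p = 0.52). *Setdb1*, which methylates histone H3 at these sites, was at 87.4 ± 3.75, 82.7 ± 9.58 and 73.3 ± 2.24 CPM (-0.25 ± 0.08, adjusted p = 0.0229 in DKO-severe). The largest rises were *Uhrf1*, which guides DNA methyltransferase to replicated DNA (2.67 ± 0.24, adjusted p = 8.23e-06), and *Cbx5*, which encodes HP1 alpha (0.57 ± 0.11, adjusted p = 0.000825). The largest falls were *Chd3*, a subunit of the NuRD complex (-1.17 ± 0.20, adjusted p = 0.000463), and *Daxx*, a histone chaperone (-0.89 ± 0.11, adjusted p = 4.99e-05).

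Zfp genes lie in chromosome clusters that arose by duplication, and 53 members lay in 10 clusters of at least 4 members with gaps of at most 250 kb. Neighbours did not always move together. In the chromosome 13 cluster (chr13:67312998-67687071) none of 8 KRAB members was called by edgeR in DKO-severe against WT, with log2 fold changes of -0.47 to 0.19, 2 at an unadjusted p below 0.05, and DESeq2 called 0 lower and 1 higher. In one chromosome 17 cluster (chr17:32765496-33033402) *Zfp871*, *Zfp799*, *Zfp472*, *Zfp952* and *Zfp763* fell, by log2 fold changes of -0.70, -0.63, -0.33, -0.66 and -0.63, and *Zfp870* rose between them. In the other (chr17:21383748-21562601) *Zfp51* fell (-0.60) and *Zfp52* rose, and the other 3 members passed in neither direction. On chromosome 6 (chr6:47835661-48086593) *Zfp212*, *Zfp956*, *Zfp777* and *Zfp746* fell, *Zfp282* rose, and *Zfp398* was at -0.41. Of the 74 members with 3 or more Zfp genes within 250 kb 38 fell and 5 rose, and of the 82 with none 41 fell and 10 rose. These were 51.4% lower and 6.76% higher, and 50% and 12.2%, beside 34.3% and 22.2% over all genes of at least 10 CPM.

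**Figure D5:**
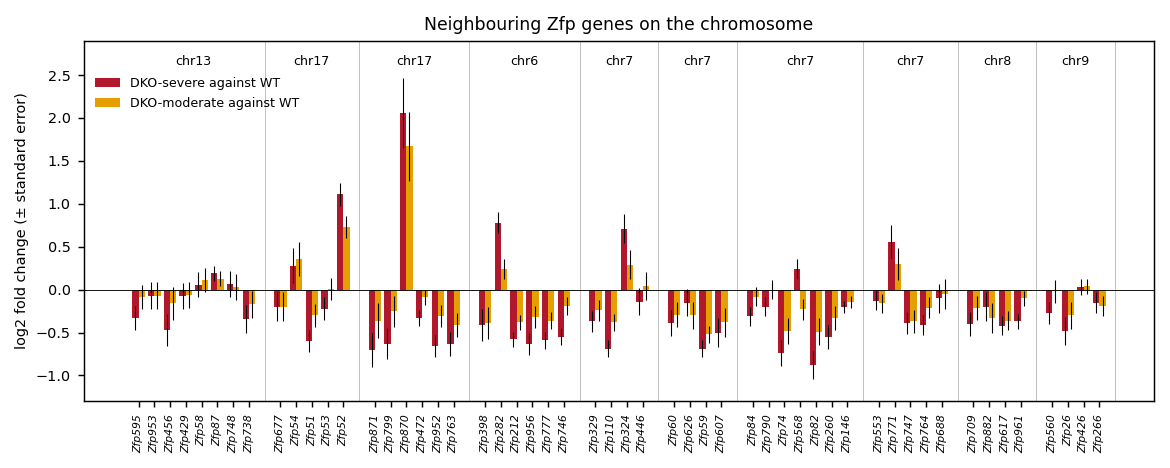
Log2 fold change (vertical axis, error bars are standard errors) of the 53 members in 10 clusters on chromosomes 6 to 9, 13 and 17, in order along each chromosome, for DKO-severe (red) and DKO-moderate (orange) against WT, both of which use the same WT libraries. Bars in the chromosome 13 cluster stay between -0.47 and 0.19, and *Zfp870* and *Zfp52* stand above neighbours with negative values.

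Reads that map to several places were left out by the authors, so a member that shares sequence with a relative is undercounted and its value is uncertain. In the GENCODE transcripts 17 members had over 10% of their 75-base stretches in another gene, 8 over 25% and 2 over 50%, *Zfp935* (100%) and *Zfp97* (75.3%), and the median member had 0%. None of the 16 members with the largest falls and rises was among the 8.

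Among the 164 members with a RefSeq promoter, the 250 bases before the start held a median of 12 CpG, beside 15 for 10675 tested genes, and 17.7% against 32.2% held at least 20. Members that fell had a median of 13 CpG (87 promoters), those that rose 18 (11 promoters) and those not called 10 (66 promoters). By density, 28 of 62 members with under 10 CpG fell, 42 of 73 with 10 to 19 and 17 of 29 with 20 or more. These were 45.2, 57.5 and 58.6%, beside 34.3% lower over all genes of at least 10 CPM. Of 8 motifs searched on both strands, the GC box GGGCGG was in 46.3% of member promoters (tested genes 56.2%), CCAAT in 47% (36.4%), the ETS core CGGAAG in 30.5% (23.5%), the E box CACGTG in 7.93% (8.03%), the E2F motif TTTNNCGC in 7.32% (6.76%), the NRF1 core GCATGCGC in 5.49% (4.18%), the cAMP response element TGACGTCA in 3.66% (2.6%) and the CArG box in 1.22% (1.18%). In the promoters printed above, *Zfp36* held 1 CArG box, *Zfp367* 1 E2F motif and 3 CCAAT boxes, *Zfp658* 1 NRF1 core and 2 ETS cores, and *Zfp238* 10 GC boxes. Matches of the same motif were counted without overlap, whereas matches of different motifs could overlap. In *Zfp658* the GC box shares letters with an ETS core. These matches describe the letters of the windows and were not tested against the changes.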

How the data were processed

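RNA of sorted CD4+ YFP(FOXP3)- cells from 4 mice in each of 3 groups was sequenced in a strand-specific, paired-end way. The authors aligned reads to mm10 with STAR 2.7.11, kept uniquely mapping reads and deposited raw counts per gene from HTSeq. The annotation they used is not given in the sources used here. Rows that name no gene, 18.5-23.7% of the reads of a library, were left out.

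Groups came from the labels. Genes with at least 10 reads over the libraries of a condition were tested in 1 fit of all 12 libraries with edgeR 4.0.16 (TMM, quasi-likelihood F test, Benjamini-Hochberg over 16035 genes, threshold 0.05), and the standard error is the absolute log2 fold change over the square root of F. Printed CPM are TMM-scaled, except the level that chose the members and the sums of marker lists, which use library size. Separate mice are the replicates. Named members were the 8 largest falls and 8 largest rises in DKO-severe against WT and the 4 of each in the other comparisons, among called members without overlap, the 6 highest per kilobase, the list of known functions, and the neighbours of the level limit. The members and lists were chosen with earlier results of these data known. Positions, exon lengths and translated coding sequences came from GENCODE M21 (GRCm38), since no protein table was used, with 186 members matched by symbol and 13 by an older symbol. KRAB domains were found with HMMER 3.4 (E-value limit 1e-05) with a profile built from 139 seeds, and promoters came from RefSeq. Same-numbered libraries of different groups did not deviate together (r of -0.272 to 0.208), so numbers were not used as pairs. No 2 libraries agreed within sampling noise. The fit was tested on simulated data for DKO-severe against WT (15662 genes, 200 changed), where 74% of genes set to -1, 80% of those set to 1, 14% of those set to -0.5 and 22% of those set to 0.5 on the log2 scale were recovered, with 4.04% false calls. Alternatives were DESeq2 1.42.0, limma voom 3.58.1, other scalings, filters and thresholds, blocks, marker terms and leaving out libraries.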

Additional observations from a re-analysis of the deposited data

Results flagged for a closer look

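In 7 of 135 gene and group combinations of the named members, 1 library stood apart from the other 3 by Dixon's criterion, which chance alone passes about 1 time in 20. In DKO-moderate 4, *Zfp106* was low at 168 CPM (next library 215 CPM), *Zfp238* was low at 29.3 CPM (next 47.3 CPM) and *Zfp593* was high at 27.6 CPM (next 21.4 CPM). *Zfp217* was high in WT 4 at 163 CPM (next 155 CPM), and *Zfp809* was high in WT 3 at 31 CPM (next 26.3 CPM). *Zfp451* was high in DKO-severe 4 at 33.8 CPM (next 29.2 CPM), and *Zfp870* was high in DKO-severe 1 at 23.4 CPM (next 14.2 CPM).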

How the results depend on the processing

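For DKO-severe against WT, 116 members were called and the count was 93-119 with each library left out, 107 with DESeq2, 112 with limma voom and 110 with the replicate block, and the median was -0.32 to -0.28 with each library left out. The neutrophil and B cell terms left 14 calls, 8 higher and 6 lower, with a median of -0.13, and asking for a log2 fold change of 1 also left 14, 8 higher and 6 lower. Falls predominated in the other settings tried. The median was -0.23 with DESeq2 and with DESeq2 size factors, -0.13 with library size, -0.26 with only both groups in the fit and -0.23 without DKO-severe 1 and 2.

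For DKO-moderate against WT, the count of 32 went to 21 (10 higher, 11 lower) with the replicate block, 15 (6 and 9) with the marker terms, 7 (3 and 4) at an adjusted p of 0.01, 2 (both higher) at a log2 fold change of 1, and 14-37 with each library left out. It was 15 without WT 1, 14 without WT 2 and 14 without DKO-moderate 2, where 8 were higher and 6 lower. Calls over all tested genes fell too, from 17.1% to 10.1, 10.7 and 11.5% in the same order. They were 13.7% with the replicate block and 11.7% with the marker terms. In libraries with Y-linked reads only 2 members were called, *Zfp467* and *Zfp52*, both higher, with a median of -0.05. Of the DKO-moderate libraries this fit kept only 1 and 3. Calls were few over all tested genes as well, at 2.48% (366 higher, 20 lower) against 17.1% in the main fit. The median was -0.19 to -0.12 with each library left out.

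For DKO-severe against DKO-moderate, the count of 34 went to 22 with library size (10 higher, 12 lower), 22 with only both groups (6 and 16), 14 without DKO-severe 1 and 2 (6 and 8), 8 at an adjusted p of 0.01, 4 at a log2 fold change of 1, and 17-52 with each library left out: 17 without DKO-moderate 1, 21 without DKO-moderate 3, 52 without DKO-moderate 4, and 18, 17 and 18 without DKO-severe 1, 3 and 4. Over all tested genes 10.3, 11.4 and 23% were called without DKO-moderate 1, 3 and 4, against 20.1% in the main fit. Without DKO-severe 1, 3 and 4 it was 12.4, 12.6 and 12.5%. With the marker terms edgeR called 0 members, with a median of -0.02. At an unadjusted p below 0.05 it had 10 higher and 9 lower, and DESeq2 without these terms called 35. With the marker terms only 0.461% of all tested genes were called, 63 higher and 11 lower, so the loss was general. In libraries with Y-linked reads 47 were called, with a median of -0.23, when 21.2% of all tested genes were called against 20.1% in the main fit. The replicate block gave 25. With library size 1130 of the 8958 genes of at least 10 CPM were higher and 780 lower. Leaving out DKO-severe 1 and 2 and restricting to libraries with Y-linked reads were chosen after seeing the data. No named member changed direction while called, and 32 of 36, 8 of 19 and 10 of 18 named calls held with every library left out in the 3 comparisons. The causes were not tested. In simulated data 14-22% of changes of 0.5 on the log2 scale were recovered, but only 200 of 15662 genes were changed there. In the real DKO-severe against WT comparison 52.6% of all tested genes were called, which makes the Benjamini-Hochberg limit less strict. The simulated shares therefore do not give the recovery in that comparison. Smaller changes in the more variable members may still have been missed.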

Other observations

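Of 121 tested Zfp genes with a mean under 10 CPM, 30 rose and 20 fell in DKO-severe against WT. These shares, 24.8% and 16.5%, stood beside 26.6% and 25.9% over all tested genes, so the share that rose was near the background, and the median log2 fold change was -0.11. In DKO-moderate against WT 11 rose and 4 fell (9.09% and 3.31%, median -0.09), beside 12.3% and 4.74% over all tested genes. Between the DKO groups 9 rose and 6 fell (7.44% and 4.96%, median 0.06), beside 9.41% and 10.7%. The difference between both levels of Zfp genes was not tested.

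Other zinc finger families, with the same minimum level of 10 CPM, were described for DKO-severe against WT beside the 34.3% lower and 22.2% higher over all genes of that level. Of 29 Zbtb genes, in which a BTB domain joins the fingers, 11 fell (37.9%, near the background) and 3 rose (median -0.28). Of 12 Zscan and Zkscan genes, which carry a SCAN domain, 6 fell (50%) and 2 rose (median -0.35). Of 15 Zc3h genes, whose CCCH fingers bind RNA as those of *Zfp36* do, 7 fell (46.7%) and 2 rose (median -0.28). In DKO-moderate against WT the medians were -0.09, -0.12 and -0.08.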
